A study of Homo sapiens with 4 samples.

Results

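The peaks described here are those that flank the centromere gaps of 16 human chromosomes in a CLIP-seq study of SAF-A. CLIP-seq crosslinks RNA to protein with ultraviolet light, recovers the protein and sequences the RNA bound to it. SAF-A (scaffold attachment factor A, also called hnRNP U) was profiled with its wild type sequence in HCT116, an established colorectal carcinoma line. The study had 2 pull-down samples and 2 input samples, the inputs being crosslinked lysate without immunoprecipitation, cut from the gel membrane at the same protein size. No treatment, time point or altered allele separates the groups, and nothing in the labels says that replicates came from separate cultures. The p-values therefore rest on the spread among 4 samples, and that spread may be technical.

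Members were chosen by position alone. On chromosomes 1 to 12, 16 to 18 and 20 the peaks of the 4 lists were pooled, and the largest distance between neighbouring peak starts was taken as the gap. Peaks with a midpoint within 3 Mb of either edge were the members. They numbered 7383 of the 278959 peaks of the series, and of the 224647 on these chromosomes. The 2 inputs contributed 805 and 1130 of them and the 2 pull-downs 2541 and 2907 (replicates 1 and 2). Positions of all lists, but not the group labels, scores, widths or overlaps, entered this choice. The density of peaks beside a gap is therefore given as a description, without a test.

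Centromeres are built on long arrays of satellite repeats, and older human assemblies leave these arrays as unsequenced blocks. The sequence beside them is rich in repeats and in segmental duplications, so that short reads can match more than 1 place. Transcripts from repeats are abundant in the nucleus, and SAF-A is known for holding chromatin-associated RNA, repeat-rich RNA and the XIST transcript on chromosome territories. The sources used here do not say how reads with several matches were treated.

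The gaps had the sizes and chromosomes that the label implies. On 13 chromosomes the gap measured 3.06 to 3.90 Mb, and on chromosomes 16, 9 and 1 it measured 11.2, 18.2 and 21.3 Mb. These are the 3 chromosomes known for large blocks of heterochromatin beside the centromere. On chromosome 2 the gap was 2.80 times the next largest peak-free stretch of the chromosome, the lowest such ratio, and on chromosome 1 it was 55.2 times. Positions are given as in the files, taken as GRCh37 and counted from 1. On these chromosomes 819 peaks ended past the GRCh38 end of 8 chromosomes, and 0 past the GRCh37 end, although the submitters' processing notes name GRCh38.

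Peaks were sparse beside the gaps in pull-down and input lists alike. The flanks covered 4.17% of the spanned length of the 16 chromosomes but held 3.29% of their peaks, 0.788 times the share their length would give. Inputs gave ratios of 0.832 and 0.808, and pull-downs 0.783 and 0.773. With the 4 lists together the ratio was below 1 on 13 of the 16 chromosomes, with 0.203 on chromosome 9 and 0.456 on chromosome 2 as the lowest. It was highest on chromosome 20, at 1.11. Only the largest gap was taken out of the length of each chromosome. Any other stretch without sequence counted as length, and its part in these ratios was not tested.

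**Figure D1:**
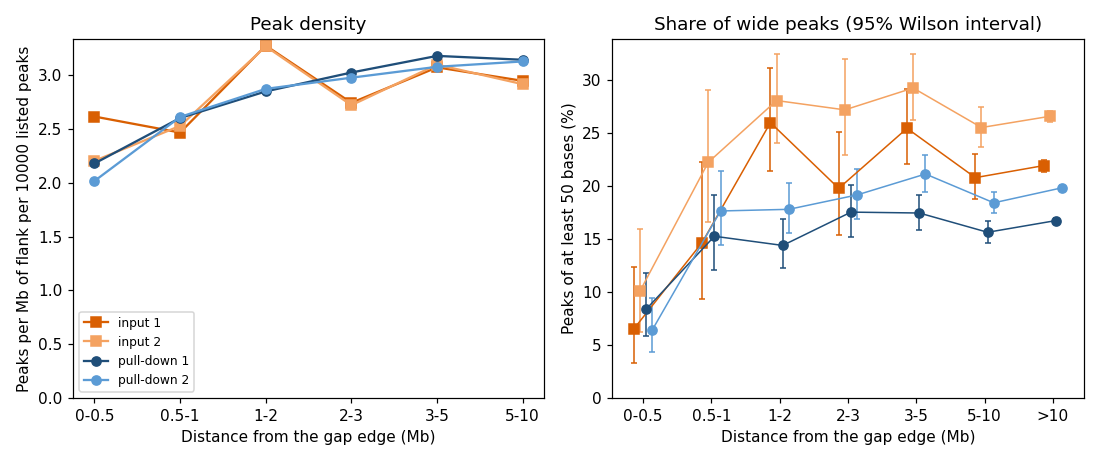
Left, peaks per Mb of flank per 10000 listed peaks against distance from the gap edge in Mb; right, the share of peaks at least 50 bases wide, with 95% Wilson intervals, in the same bands. Squares are the 2 inputs and circles the 2 pull-downs; the band within 0.5 Mb of the edge has 6.41% to 10.1% wide peaks, below every other band of the same library.

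In every library the density was lower within 1 Mb of the edge than in each band farther out to 10 Mb. Within 0.5 Mb of an edge there were 2.62 and 2.20 peaks per Mb per 10000 listed input peaks, and 2.18 and 2.02 for the pull-downs. At 3 to 5 Mb the inputs had 3.07 and 3.1 and the pull-downs 3.18 and 3.08. The inputs had their highest density, 3.28 and 3.27, at 1 to 2 Mb, where the pull-downs had 2.85 and 2.87. Without the 2 dense clusters of chromosomes 16 and 20, the inputs had 3.03 and 3.07 there, which is under their values at 3 to 5 Mb. Just inside the 3 Mb limit, at 2.9 to 3.0 Mb, the libraries listed 27, 38, 81 and 90 peaks (inputs, then pull-downs), and just outside it, at 3.0 to 3.1 Mb, they listed 21, 34, 90 and 91.

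The first comparison asked whether SAF-A pull-down lists held more or less of these flanks than their background. The members made up 3.47% (95% Wilson interval 3.24 to 3.71) and 3.37% (3.18 to 3.57) of the input peaks on the 16 chromosomes. They made up 3.27% (3.14 to 3.39) and 3.23% (3.11 to 3.34) of the pull-down peaks. Both pull-downs lay below both inputs, with 3.25% ± 0.03 against 3.42% ± 0.07 (SD, n = 2 each), a difference of -0.176 percentage points. The two-sided exact permutation test gave p = 0.333, the smallest it can give with 2 against 2 samples.

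The difference was smaller without a pair of dense clusters of peaks. When both clusters were left out, members made up 3.29% and 3.23% of input peaks and 3.23% and 3.19% of pull-down peaks. The groups then overlapped, and the difference was -0.046 percentage points (exact permutation p = 0.667). In lists cut to equal length by score it was -0.06 points (exact permutation p = 0.667). Clusters were formed from the peaks of all 4 lists on 1 strand, each within 1 kb of those before it. This definition and the choice of these clusters were made after values had been seen. Both clusters were richer in input peaks, so leaving them out had to move the difference upward. No cluster outside the flanks was left out.

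The larger cluster lay on the plus strand of the short-arm flank of chromosome 16, from 33962571 to 33966072, 1.31 Mb from the gap. Its 3502 bases held 83 peaks, of which the inputs listed 23 and 27 and the pull-downs 16 and 17. Per 10000 listed peaks this was 7.11 ± 1.02 for the inputs and 1.60 ± 0.10 for the pull-downs (SD, n = 2 each), 4.45 times as much in the inputs. Peaks there were narrow, with median widths of 12 bases in each input and 24.5 and 24 bases in the pull-downs. Most were found again: 21 of 23 and 24 of 27 input peaks overlapped a peak of the other input, and 15 of 16 and 15 of 17 pull-down peaks one of the other pull-down.

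The other cluster lay on the minus strand of the short-arm flank of chromosome 20, from 26188725 to 26190516, and only 0.041 Mb from the gap. It held 71 peaks in 1792 bases, 21 and 23 from the inputs and 12 and 15 from the pull-downs. Per 10000 listed peaks this was 6.29 ± 1.20 for the inputs and 1.30 ± 0.07 for the pull-downs (SD, n = 2 each), a ratio of 4.85. Median widths were 7 and 5 bases for the inputs, against 18 and 10 for the pull-downs. Of the pull-down peaks, 12 of 12 and 14 of 15 overlapped an input peak. Among the 145687 clusters of the nuclear genome, single peaks included, these ranked 7 and 8 by their number of peaks. The next cluster near a gap had 16 peaks and ranked 170. Of the 126 clusters of at least 20 peaks in the genome, 52 (41.3%) had pull-down shares below either input and 63 had shares above either input.

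**Figure D2:**
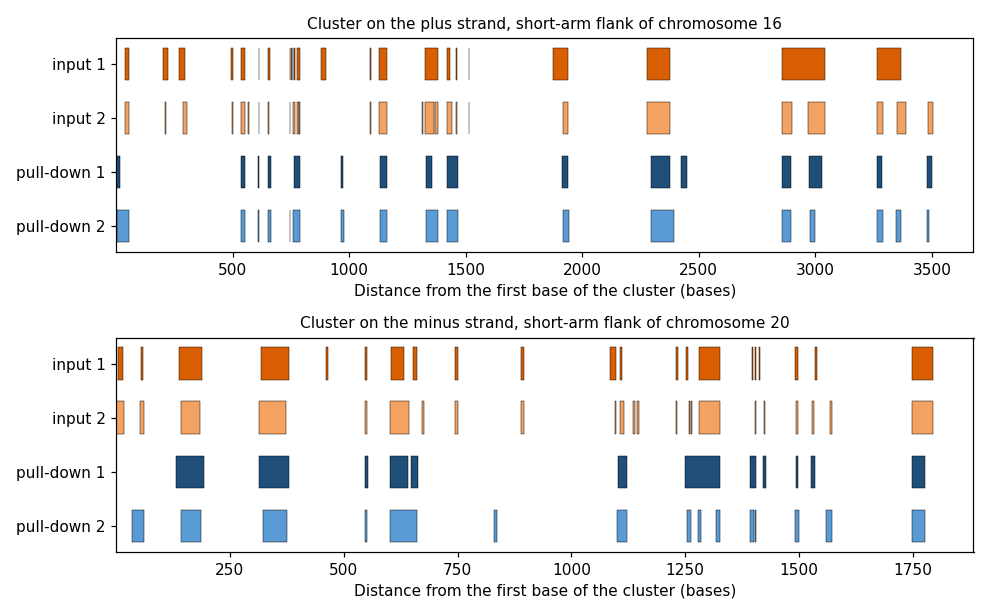
Peaks of the 2 clusters by library, drawn to scale as bars from peak start to peak end, against the distance in bases from the first base of the cluster. The upper cluster holds 83 peaks and the lower 71, and many bars stand at the same place in several libraries.

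The second comparison asked which flanks differed between pull-down and input. Each of the 32 flanks (2 sides of 16 chromosomes) was a 3 Mb window in a limma fit of 973 windows tiled over all nuclear chromosomes. Each count, with 0.5 added, was scaled to 10000 listed peaks and put on the log2 scale, and calls were made at a Benjamini-Hochberg adjusted p of 0.05. Of the 32 flanks, all of which were tested, 7 were called higher in the pull-downs and 5 lower. Over all windows 29.5% were called higher, 15.6% lower and 45.1% in either direction, against 37.5% of the flanks in either direction. The flanks had a median log2 ratio of 0.04 and all windows one of 0.13. The lower calls were as frequent in the flanks as in all windows, and the higher calls less frequent, a difference that was not tested. In 1 Mb windows 82 of the 96 member windows passed the minimum of 10 peaks on average, and 10 were called higher and 12 lower. The background there was 15.5% higher, 11.4% lower and 26.9% in either direction, and 26.8% of the tested member windows were called.

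**Figure D3:**
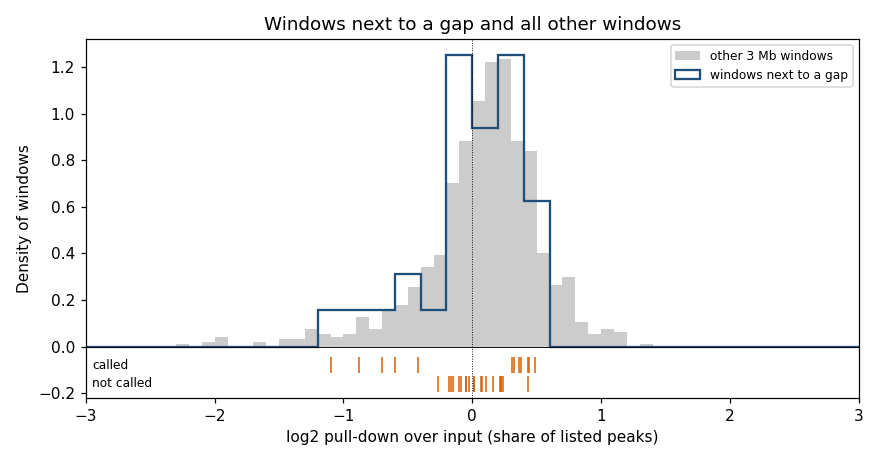
Density of the log2 ratio of pull-down over input share in 3 Mb windows, for all other windows (grey) and for the 32 windows next to a gap (blue line); ticks below mark each of the 32, with called ones on the upper row. The ticks span -1.09 to 0.49, and the grey bars reach beyond both ends of that range.

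The lowest flank was the short-arm side of chromosome 16 (32279430 to 35279429). It listed 52 and 51 input peaks, 17.7 and 12.1 of every 10000, and 70 and 72 pull-down peaks, 7.29 and 6.47 of every 10000. The groups did not overlap, although input replicate 1 was well above replicate 2. The log2 ratio was -1.09 (SE 0.14, limma adjusted p = 3.7e-07). The dense cluster made up 33.9% of the peaks of this flank. Without it 29 and 24 input and 54 and 55 pull-down peaks were left, and the log2 ratio was -0.52 (adjusted p = 0.022).

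The long-arm side of chromosome 8 (46869968 to 49869967) was lower as well, and it held no cluster of at least 20 peaks. The inputs listed 42 and 61 peaks, 14.3 and 14.4 of every 10000, and the pull-downs 72 and 91, 7.50 and 8.18 of every 10000. Both inputs lay well above both pull-downs, and limma gave -0.88 on the log2 scale (SE 0.11, adjusted p = 4.5e-07). One 100 kb window on its minus strand (48700001 to 48800000) listed 10 and 19 input and 3 and 5 pull-down peaks. That was 3.95 ± 0.77 and 0.38 ± 0.10 per 10000 (SD, n = 2 each). The ratio of the flank without this window was not computed. Peaks of 50 bases or more, called wide here, were 36.8% of this flank's peaks in the 4 lists together, the highest share of the 32 flanks, against 20.6% on the rest of chromosome 8. These pooled shares mix lists that differ in their wide peaks. With both flanks of chromosome 8 together, 36.4% and 37.2% of input members were wide, against 20.2% and 25.4% of the rest. In the pull-downs these shares were 18.9% and 17.2%, against 18.2% and 21.1%. The short-arm side of the same chromosome (40732632 to 43732631) listed 46 and 60 input and 113 and 118 pull-down peaks, and its log2 ratio was -0.42 (SE 0.11, limma adjusted p = 0.0029). In lists of equal length the ratio was only -0.08 (adjusted p = 0.567). With pull-down replicate 1 as the only pull-down it was -0.35 and not called (adjusted p = 0.134).

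The long-arm side of chromosome 2 (95330270 to 98330269) listed 31 and 45 input and 62 and 74 pull-down peaks, or 10.6 ± 0.07 and 6.55 ± 0.14 per 10000 (SD, n = 2 each). Its log2 ratio was -0.70 (SE 0.12, limma adjusted p = 4.8e-05), but with only the better-scoring 50% of peaks it was -0.15 and not called. It was not called in lists of equal length either (-0.45, adjusted p = 0.055). The short-arm side of chromosome 20 (23231412 to 26231411) gave -0.60 (SE 0.11, limma adjusted p = 0.00013), from 42 and 52 input and 84 and 99 pull-down peaks. This flank turned direction without its cluster. With 21 and 29 input and 72 and 84 pull-down peaks left, the log2 ratio was 0.08 (adjusted p = 0.637).

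Higher flanks had smaller log2 ratios than most of the lower ones. The short-arm side of chromosome 12 (31799251 to 34799250) listed 15 and 24 input and 72 and 88 pull-down peaks, 5.39 ± 0.41 and 7.70 ± 0.29 per 10000 (SD, n = 2 each). Its log2 ratio was 0.49 (SE 0.14, limma adjusted p = 0.0074). The next 5 by size were the long-arm sides of chromosomes 7 and 4 (0.44 and 0.38), the short-arm side of chromosome 10 (0.43) and the short-arm and long-arm sides of chromosome 5 (0.36 and 0.32). All windows together had a median of 0.13. With each list centred on its median window, only the flank of chromosome 12 was still called higher, at 0.37 (adjusted p = 0.040), while 6 flanks were called lower. In that fit 35.9% of all windows were called, 161 of them higher, against 287 higher before centring. With 1 pull-down left out, the spread comes from the inputs alone and the lone pull-down is assumed to vary as they do. Without replicate 1 or replicate 2, 5 and 4 flanks were called, 0 of them higher, while calls over all windows fell to 17.5% and 19.9%. The ratios themselves moved little in these 2 fits, with 0.52 and 0.45 for the chromosome 12 flank. In lists of equal length this flank had 0.46 and in the better-scoring 50% only 0.12. It was called in neither (limma adjusted p = 0.137 and 0.644).

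**Figure D4:**
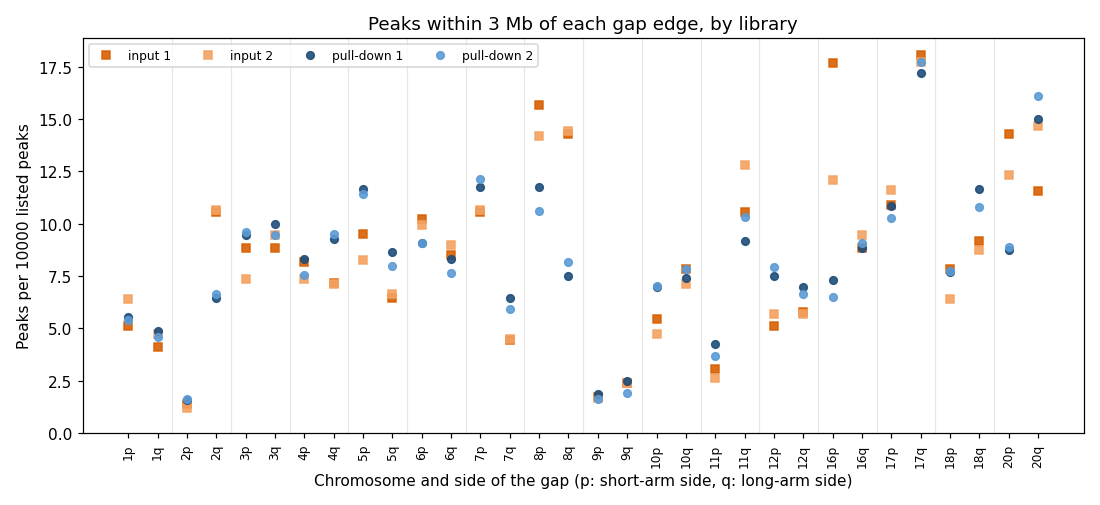
Peaks per 10000 listed peaks within 3 Mb of the gap edge for each of the 32 flanks, in chromosome order, with p for the short-arm and q for the long-arm side; squares are the 2 inputs and circles the 2 pull-downs. The flank with the lowest pull-down share relative to input is 16p, and the inputs also stand above the pull-downs at 8q, 2q and 20p.

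The flanks ranged widely in their number of peaks. The long-arm side of chromosome 17 (25298578 to 28298577) was the fullest, with 53, 75, 165 and 197 peaks (inputs, then pull-downs), 490 in all. Per 10000 listed peaks it had 17.9 ± 0.2 in the inputs and 17.4 ± 0.4 in the pull-downs (SD, n = 2 each). The long-arm side of chromosome 20 followed with 419 peaks, then the short-arm sides of chromosomes 8, 7 and 5 with 337, 324 and 302. The emptiest was the short-arm side of chromosome 2 (89204792 to 92204791), with 4, 5, 15 and 18 peaks. One stretch of 1116 kb in it held no peak in any list, where the median longest stretch of a flank was 179 kb. Whether the assembly has sequence there was not checked. The short-arm and long-arm sides of chromosome 9 held 48 and 62 peaks. In none of these 3 emptiest flanks was a difference between pull-down and input called.

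Single megabases within the flanks gave wider ratios. The 1 Mb window with the lowest ratio contained the chromosome 16 cluster (33279430 to 34279429), at -1.67 (SE 0.18, limma adjusted p = 4.3e-06). It was -1.02 without that cluster. In lists of equal length it was -0.85 and not called (limma adjusted p = 0.055). The windows from 47869968 to 48869967 on chromosome 8 and from 96330270 to 97330269 on chromosome 2 gave -1.30 (SE 0.16) and -1.22 (SE 0.19) in limma (adjusted p = 1.7e-05 and 0.00015). On chromosome 8 the inputs listed 26 and 42 peaks there and the pull-downs 34 and 46. That megabase contains the 100 kb window of chromosome 8 named above. In lists of equal length it gave -1.53 and was not called (limma adjusted p = 0.068). The chromosome 2 window had too few peaks to be tested there or in the better-scoring 50%. The long-arm flank of chromosome 16 held a window in each direction. From 47468011 to 48468010 it listed 17 and 19 input and 28 and 34 pull-down peaks (-0.79, adjusted p = 0.0046). A cluster of 16 peaks lies in it (47538679 to 47539253, plus strand), with 5 and 6 input and 2 and 3 pull-down peaks. The ratio was -0.37 in lists of equal length and -0.63 in the better-scoring 50%, and was called in neither (adjusted p = 0.316 and 0.078). Nor was it called without pull-down replicate 1 (-0.76, adjusted p = 0.064). From 48468011 to 49468010 the same flank listed 3 and 5 input and 23 and 30 pull-down peaks (1.06, adjusted p = 0.0073).

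The megabase next to the gap on the short arm of chromosome 20 (25231412 to 26231411) gave -0.88 (SE 0.17, limma adjusted p = 0.00098) from 26 and 30 input and 42 and 48 pull-down peaks. Without the cluster, which was chosen after values had been seen, it gave 0.76 and was called in the other direction (limma adjusted p = 0.018). The cluster held 21 and 23 of these input peaks and 12 and 15 of these pull-down peaks. Leaving it out thus had to raise the ratio, and few input peaks remained. In lists of equal length, cluster included, the window gave -0.92 and was not called (limma adjusted p = 0.071). Higher windows lay on the long-arm sides of chromosomes 18 (19547708 to 20547707, 1.08, SE 0.22), 20 (31452419 to 32452418, 1.0, SE 0.23), 4 (54702871 to 55702870, 0.91, SE 0.23) and 3 (94585722 to 95585721, 0.74, SE 0.19). In the first of these the inputs listed 5 and 7 peaks and the pull-downs 42 and 37 (limma adjusted p = 0.0015). Inputs listed 4 and 9, 4 and 6, and 7 and 9 peaks on chromosomes 20, 4 and 3. With so few input peaks counting error is wide. These 4 windows and the higher one of chromosome 16 passed the minimum of 10 through their pull-down peaks. In lists of equal length only that of chromosome 3 was tested, and it was not called (0.81, adjusted p = 0.138). In the better-scoring 50% the chromosome 18 window was called (1.08, adjusted p = 0.034). Those of chromosomes 20 and 3 were not (0.85 and 0.43, adjusted p = 0.065 and 0.235). With pull-down replicate 2 as the only pull-down these 4 windows, in the same order, had ratios of 0.89, 1.01, 0.97 and 0.67, and the higher window of chromosome 16 had 1.14. None of the 5 was called in that fit, in which 4 member windows and 8.98% of all windows were called. With replicate 1 as the only pull-down, 8 member windows and 10.2% of all windows were called.

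The third comparison set the peaks beside the gaps against the rest of the same chromosomes in features that the choice did not use. Scores were slightly higher. The deposited score has no stated meaning and was used as a percentile rank within its list. Members averaged 51.2, 51.5, 51.1 and 51.4 (inputs, then pull-downs), against 49.9, 49.8, 49.7 and 49.7 in the rest. The difference of 1.5 ± 0.16 percentile points (SD, n = 4) was positive in 4 of 4 libraries. On 11 of 16 chromosomes the mean difference was above 0, on 6 of these in 4 of 4 libraries, from -6.39 on chromosome 18 to 16.3 on chromosome 9. With members within 2 Mb it was 2.94 and within 5 Mb 0.93. The exact sign-flip permutation test over libraries gave p = 0.125, the smallest it can give with 4. Pull-downs and inputs gave 1.5 ± 0.18 and 1.5 ± 0.22 (SD, n = 2 each). Without the short-arm flank of chromosome 16 it was 0.97 (exact sign-flip p = 0.125).

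Wide peaks were less frequent beside the gaps. They made up 19.4% and 24.5% of input members and 14.9% and 16.9% of pull-down members, against 21.9%, 26.6%, 16.7% and 19.8% in the rest. The difference of -2.33 ± 0.50 percentage points (SD, n = 4) was negative in 4 of 4 libraries (exact sign-flip p = 0.125). Many member peaks recur between lists, so the 4 lists are not independent for width or score either. The SD does not measure the spread over chromosomes, and the difference was not shared by all of them. On 10 of 16 the mean difference was below 0 and on 7 of these it was so in 4 of 4 libraries, from -14.5 points on chromosome 9 up to 13.7 points on chromosome 18. Members within 5 Mb of an edge, a wider choice, gave -0.40 points (exact sign-flip p = 0.5). Members on chromosome 9 were few, with 12, 17, 42 and 39 peaks.

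The lack of wide peaks was concentrated next to the gap. Within 0.5 Mb of an edge 8 of 123, 15 of 149, 28 of 335 and 23 of 359 peaks were wide (inputs, then pull-downs). These shares were 6.50%, 10.1%, 8.36% and 6.41%, and every 95% Wilson interval lay below the share in the rest of the chromosomes. The mean difference from the rest was -13.4 percentage points, negative in 4 of 4 libraries (exact sign-flip p = 0.125). This band was chosen after values had been seen, and the test cannot give a lower p. Without chromosome 20, which held the most such peaks, it was also -13.4. Of the 32 flanks 28 had a lower share of wide peaks there than the rest of their chromosome, and 15 had 0. Of the 21 flanks with at least 20 peaks in the band, 17 were lower.

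The difference was present at both higher and lower scores. Among peaks with a score of at least 20, the wide share within 0.5 Mb was 10.6%, 7.46%, 6.38% and 5.29% (inputs, then pull-downs), and beyond 10 Mb it was 15.5%, 20.3%, 11% and 12.4%. Among lower scores it was 3.95%, 12.2%, 10.9% and 7.95%, against 26.7%, 30.8%, 22.2% and 26.4%. The distance between the bands was the larger one among the lower scores in each library. Median widths within 0.5 Mb were 11, 13, 13 and 13 bases, and beyond 10 Mb 14, 16, 15 and 16 bases.

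The sides of the gap differed in the inputs. Wide peaks made up 14.6% and 18.6% of input members on the short-arm side and 24.1% and 29.5% on the long-arm side. In the pull-downs these shares were 14.2% and 16.6% on the short-arm side and 15.5% and 17% on the long-arm side. The difference between sides was not tested. Strand was close to balanced, with 47.5%, 47.9%, 48.7% and 49.6% of members on the plus strand against 49.4%, 50.1%, 50.2% and 50.5% in the rest.

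Recurrence was the share of peaks that overlapped a peak of the other library of the same group by at least 1 base on the same strand. It was 80.0% (95% Wilson interval 77.1 to 82.6) and 57.2% (54.3 to 60.0) for input members, against 78.0% and 54.0% in the rest. For pull-down members it was 65.8% (64.0 to 67.7) and 57.7% (55.9 to 59.5), against 65.6% and 56.6%. The difference was 1.63 ± 1.23 percentage points (SD over the 4 lists), above 0 in 4 of 4 lists (exact sign-flip p = 0.125). The 2 lists of a group count largely the same overlaps from either side. Input replicate 1 had 644 recurrent members, against 646 for replicate 2. Pull-down replicate 1 had 1673, against 1677 for replicate 2. Lists of a group are thus not independent for recurrence. The exact tests given here treat them as independent, so they cannot decide whether recurrence differed. For the inputs the difference from the rest was 2.57 ± 0.81 points, and for the pull-downs 0.68 ± 0.58 (SD over 2 lists each), with an exact permutation p of 0.333. Without the short-arm flank of chromosome 16 the mean was 1.0 (exact sign-flip p = 0.25), and within 5 Mb of an edge it was 0.74 (exact sign-flip p = 0.375). By chromosome it ran from -6.70 points on chromosome 7 to 15 on chromosome 16.

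At matched scores recurrence in the inputs was slightly higher beside the gaps, and the pull-downs were mixed. These differences were not tested. The 2 inputs count largely the same overlaps, and classes were small, with 47 and 52 input members at a score of at least 100. Members were above the rest in 5 of 5 score classes of each input, by 0.541 to 2.89 points in replicate 1 and 0.766 to 3.31 in replicate 2. In pull-down replicates 1 and 2 they were above it in 2 and 4 of 5 classes, with differences of -3.78 to 1.12 and -1.63 to 2.50 points. In pull-down replicate 1, at a score of 10 to 14, 51.5% of members and 50.4% of the rest were found in replicate 2, and at a score of at least 100 these shares were 70.9% and 71.1%. For input replicate 2 they were 27.1% and 26.3% at a score of 10 to 14, and 84.6% and 81.3% at a score of at least 100.

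The share of pull-down members that coincided with input peaks varied with the choice of peaks. Of the members in the pull-downs, 30.1% and 27.7% overlapped a peak of either input, against 29.7% and 26.3% of the rest. Within 0.5 Mb of an edge these shares were 37.3% and 36.5%. Without the dense clusters the members' shares were 29.5% and 27.0%, and the mean difference fell from 0.94 to 0.24 percentage points. It was 2.86 points for members within 2 Mb, 2.29 in the better-scoring 50% and 3.34 in lists of equal length.

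Merged over the 4 lists, the flanks held 4217 sites. All 4 lists shared 480 (11.4%), both pull-downs but neither input 934 (22.1%), and both inputs but neither pull-down 130 (3.08%). On the rest of the chromosomes these shares were 10.2%, 22.4% and 2.66%. The sites of both inputs without a pull-down peak were 88.5 bases wide at the median, with 63.1% wide, whereas those of both pull-downs without an input peak had a median of 16 bases and 21.2% were wide. On the rest of the chromosomes the corresponding medians were 85 and 16 bases.

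Of the sites in all 4 lists, the best-scoring was a 49-base site on the plus strand of chromosome 20 (30596168 to 30596216), 1.14 Mb from the gap. By score it ranked 14 and 39 among input peaks, and 9 and 6 among pull-down peaks. The next was a 21-base site on chromosome 10, plus strand (44697736 to 44697756), with ranks of 34, 51, 56 and 114. An 18-base site on the plus strand of chromosome 8 (47926653 to 47926670) ranked 152 and 174 among input peaks, and 40 and 38 among pull-down peaks. Ranks from lists of such different lengths show no change between the groups. A 35-base site on the plus strand of chromosome 6 (62640410 to 62640444) and a 26-base site on the minus strand of chromosome 9 (46439677 to 46439702) followed, with mean ranks of 113.75 and 129.25. All 5 thus stood within the best 314 peaks of each list.

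Sites of both pull-downs without an input peak ranked lower. The best was a 28-base site on the plus strand of chromosome 8 (48982159 to 48982186), ranked 455 and 393. A 21-base site on the minus strand of chromosome 18 (18625873 to 18625893) ranked 904 and 823 and lay 0.078 Mb from the gap. The 3 others, all on minus strands, lay on chromosomes 20 (31403937 to 31403966), 17 (26931160 to 26931184) and 10 (45520591 to 45520619), with mean ranks of 1911.5, 1976 and 1997. The best-scoring site of both inputs without a pull-down peak was a 20-base site on the plus strand of chromosome 18 (14450477 to 14450496), ranked 365 and 114. It was followed by sites of 21 bases on chromosome 16 (47178423 to 47178443, minus strand), 14 bases on chromosome 20 (25371528 to 25371541, minus strand), 98 bases on chromosome 2 (96931074 to 96931171, minus strand) and 21 bases on chromosome 17 (27407686 to 27407706, plus strand). Of these 5 best-scoring sites only the one on chromosome 2 was wide.

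Counted by strand in windows of 100 kb, members fell in 1435 windows, and the 10 fullest windows held 6.66% of them. The 2 fullest contained the dense clusters of chromosomes 16 and 20, with 96 and 73 peaks. The next lay on chromosome 7, plus strand (55100001 to 55200000), and was of the opposite kind. It listed 22 and 30 pull-down peaks and 0 in either input, 2.49 ± 0.29 of every 10000 pull-down peaks (SD, n = 2). Of its merged sites 9 were in both pull-downs.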

How the data were processed

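The deposited data are 1 list of peaks for each sample, with position, score and strand, and no pooled list. The score is given as the authors deposited it: how they computed it, which peak caller made the lists and at what threshold are not stated in the labels or files. It was used as a rank. STAR, featureCounts and GRCh38 are named, without versions, by the submitters' processing notes. The lists held 29386 and 42256 peaks (inputs) and 96061 and 111256 (pull-downs). Read depth is unknown, and a longer list can reflect deeper sequencing.

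Ends were compared with chromosome lengths of both builds, taken from general knowledge; the positions fit GRCh37 only. The gene table was GRCh38.p14, so no peak was assigned to a gene.

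Windows were tiled outward from the gap edges, and from position 1 on other chromosomes, and tested in limma 3.58.1 (R 4.3.3), using lmFit and eBayes with a mean trend. Benjamini-Hochberg adjustment ran over all windows with a mean of at least 10 peaks. The fit was tested on simulated lists. Single values were compared by exact permutation tests over samples. Wilson intervals (95%) cover counting error only, and neighbouring peaks are not independent.

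Members and lists were chosen with earlier results of these data known. Named were the 5 fullest and 3 emptiest flanks, called flanks and windows by size (up to 6 and 5 each way, with a peak in all 4 lists), 5 sites of each kind by mean rank, and the 3 fullest 100 kb windows. Alternatives covered flank width, list length, score, width, overlap, scaling, filters and left-out libraries.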

Additional observations from a re-analysis of the deposited data

How the results depend on the processing

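Without the 2 densest clusters, the short-arm flank of chromosome 20 turned from -0.60 to 0.082 in the 3 Mb window and from -0.88 to 0.76 in the 1 Mb window next to the gap. Its cluster was richer in input peaks, so leaving it out had to raise both ratios. Against 12 called flanks (3 Mb; 45.1% of all windows called), 7 were called after centring each list (35.9%), 2 in lists of equal length (17.2%), 7 in the better-scoring 50% (28.1%), and 4 to 15 when 1 library was left out (17.5% to 52.5%). Against 22 called 1 Mb member windows (26.9% of all windows), 1 was called in lists of equal length (7.83%), 7 in the better-scoring 50% (13.9%), and 4 to 33 when 1 library was left out (8.98% to 40.4%). Equal lists tested only 30 member windows. The counts of called members thus moved with the calls over all windows. Fits with 1 pull-down take their spread from the inputs alone, and fits with 1 input take it from the pull-downs alone. The flanks on the short arm of chromosome 16 and the long arm of chromosome 8 were called in all 12 alternatives, such fits among them. Their highest adjusted p-values in limma, 0.047 and 0.028, came from lists of equal length.

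The sizes of some differences moved, and the cause was not tested. For the excess of pull-down members with an input peak (0.94 points), members within 2 Mb gave 2.86, equal lists 3.34, the better-scoring 50% 2.29, and leaving out the short-arm flank of chromosome 16 or both clusters 0.24. The pull-down minus input difference in score (-0.0071 percentile points) was -0.49 within 2 Mb, -0.51 within 5 Mb, 0.37 in equal lists, 0.42 without the chromosome 16 flank and 0.46 without the clusters. That in wide peaks (-0.048 points) was -0.90 within 5 Mb, -1.08 without chromosome 17 and -0.87 with wide peaks from 30 bases, but 0.68 in the better-scoring 50% and -0.60 to 0.51 with 1 library left out. That in recurrence (-1.89 points) was -3.30 in the better-scoring 50%. Within 5 Mb the deficit of wide peaks was -0.40 points and the excess of recurrence 0.74. With 1 library left out, the pull-down minus input difference in the share of members ran from -0.225 to -0.126 points.

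A lysate was divided between input and pull-down per the labels' protocols, which do not tie replicate numbers to lysates, and the deviations of same-numbered samples correlated at only 0.05 across 2778 windows. With the replicate block 11 flanks and 22 member windows were called, beside 42.1% and 26.7% of all windows. Some named windows fell under the minimum count in an alternative, and those pairs are not counted here. Of the tested pairs of a named window and an alternative, 186 kept call and direction. Another 54 lost the call in the same direction and 2 reversed. Leaving out the clusters or the chromosome 16 flank, and dropping the minimum count, were chosen after seeing the data. The number of libraries and the unknown read depth limit all comparisons.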
